A study of Mus musculus with 24 samples.

Results

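The effect of interferon treatment on the difference between Jak2V617F and wild-type long-term haematopoietic stem cells (LT-HSCs) was measured within mixed bone marrow chimeras. All 24 libraries of the series were used, 2 from each of 12 mice. Recipients were lethally irradiated Ptprc a/b C57BL/6J mice given a 1:1 mixture of whole marrow from a Jak2 fl-V617F/+, Tg(E2A-cre) donor (CD45.2, VF) and a congenic Jak2 +/+ donor (CD45.1, WT). Every mouse therefore gave a VF library and a WT library, sorted as Lin-/Sca1+/c-Kit+/CD150+/CD48- cells and told apart by their CD45 alleles. A group of 6 mice received 600 ng pegylated interferon alpha (pegIFN) under the skin each week, 5 doses over 4 weeks, and the other 6 received the vehicle on the same schedule. Marrow was taken 48 hours after the last dose. The ages of the mice are not given in the sources used here. The comparison took the VF minus WT difference inside each mouse and asked how it differed between the 6 pegIFN and the 6 vehicle mice.

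Jak2V617F is a mutant form of the Janus kinase JAK2 that signals without cytokine and drives myeloproliferative neoplasms, which arise in the stem cell compartment. Type I interferon binds the IFNAR1 and IFNAR2 receptor chains, activates JAK1 and TYK2, and switches on interferon-stimulated genes through STAT proteins and IRF9. Interferon is also known to push dormant stem cells into cycle. The design asks whether mutant and normal stem cells in the same marrow respond differently to it.

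Below, the interaction of a gene is its VF minus WT log2 fold change under pegIFN minus the same fold change under vehicle. A positive interaction means that VF cells stood higher relative to the WT cells of their own mouse under pegIFN than under vehicle. It equals the pegIFN response of VF cells minus that of WT cells, so those 4 quantities are not independent of each other. A gene is called where edgeR's quasi-likelihood test, with the mouse as a block, gave a Benjamini-Hochberg adjusted p under 0.05. Levels are in CPM, a gene's count scaled to a common library total.

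Library totals ran from 24.6 to 39.7 M estimated counts, and the mitochondrial share was 2.46 to 4.01% in WT and 2.68 to 3.44% in VF under vehicle, and 1.54 to 2.24% in WT and 2.00 to 3.25% in VF under pegIFN. The share thus moved with treatment, its median by more in WT than in VF, and its part in the results below was not tested. Summed CPM of 9 LT-HSC markers was 1930 to 2650 in WT and 1500 to 1950 in VF under vehicle, and 1190 to 1600 in WT and 1080 to 1710 in VF under pegIFN, so the markers of the sorted population also moved with genotype and treatment. Megakaryocyte markers (5 genes) summed to 295 to 820 in WT and 412 to 955 in VF under vehicle, and to 528 to 846 and 719 to 1010 under pegIFN. Summed granulocyte and monocyte markers (7 genes) ranged from 282 to 867 in WT and 309 to 1780 in VF under vehicle, and from 152 to 521 in WT and 739 to 1250 in VF under pegIFN. Erythroid markers summed to between 121 and 360, B cell markers to between 9.51 and 22.8, T and NK cell markers to between 33.3 and 143, mast cell and basophil markers to between 9.02 and 25.8, and endothelial and stromal markers to between 1.22 and 78.5. No marker found in the table was at 0 in all libraries of a group. Xist, transcribed from the inactive X chromosome, was at 1800 to 3310 CPM in 11 of the 12 WT libraries, and 4 Y-linked genes summed to 2.17 to 75.7 CPM there. The WT library of vehicle mouse 4 held 600 CPM of Xist and 250 CPM of the Y-linked genes, against 3 to 110 and 158 to 243 CPM in VF libraries other than that of pegIFN mouse 1. That VF library held 654 CPM of Xist and 149 CPM of the Y-linked genes, the lowest Y-linked sum of the VF libraries. These 2 libraries, labelled WT and VF, may therefore hold cells of the other donor, which was not tested, and counts are also given without those mice. Outside these 2 libraries, the Y-linked sum in WT was 20.2 to 75.7 CPM under vehicle and 2.17 to 22.7 CPM under pegIFN. Xist in VF was 3 to 54.9 CPM under vehicle and 40.8 to 110 CPM under pegIFN. These levels thus moved with treatment too, and their part in the results below was not tested. Donor sex, the CD45 allele and the Cre transgene went with genotype and cannot be told apart from it.

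VF and WT cells of the same mouse differed under both treatments, but pegIFN changed the difference for a small part of the transcriptome. Of 15215 autosomal genes tested, 514 (3.38%) were called for the interaction. Of these, 195 (1.28%) had a higher VF minus WT difference under pegIFN and 319 (2.1%) a lower one. For comparison, 4777 genes (31.4%) differed between VF and WT under vehicle and 3749 (24.6%) under pegIFN. The largest called interactions included Scin, encoding the actin-severing protein scinderin, at -2.52 ± 0.41 (SE). At the other end, Ccl6, a CC chemokine gene, had an interaction of 1.75 ± 0.43. The call rests on comparing cells inside a mouse: with group means and no mouse term, edgeR called 0 genes, with 1285 at an unadjusted p under 0.05. Without vehicle mouse 4 and pegIFN mouse 1, 102 genes were called (40 higher, 62 lower), 97 of them among the 514. Leaving out 1 mouse at a time gave between 199 and 923 calls. With upper-quartile scaling the called genes split as 242 higher and 230 lower, and with a filter of 1 CPM in 12 libraries as 250 and 269.

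Most called genes moved less with interferon in the mutant cells than in the WT cells. Of the 319 genes with a lower difference, 314 had a positive pegIFN response in WT cells, and in 294 the response was larger in size in WT than in VF. Of the 195 genes with a higher difference, 186 had a negative response in WT cells, and in 177 the WT response was the larger. Over all called genes the WT response was the larger in 91.6%, against 69.9% of all genes tested. The interaction contains the WT response with a minus sign, so these counts describe the called genes and carry no test. As a count of calls, 182 of the 514 had a pegIFN response that passed the test in WT only, 26 in VF only and 277 in both, in a fit without the mouse term that called 57% of all genes in WT and 44.2% in VF. The difference itself changed sign between treatments in 146 of the 195 and 159 of the 319. All 514 had an exact permutation p under 0.05 over mice (two-sided, unadjusted). For 87 of the 195 and 141 of the 319 the 6 pegIFN mice lay wholly apart from the 6 vehicle mice, where 0.802% and 1.29% of all genes did so in those directions. The genes were called from the same libraries, so the permutation p and the separation of mice describe them and add no support.

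**Figure D1:**
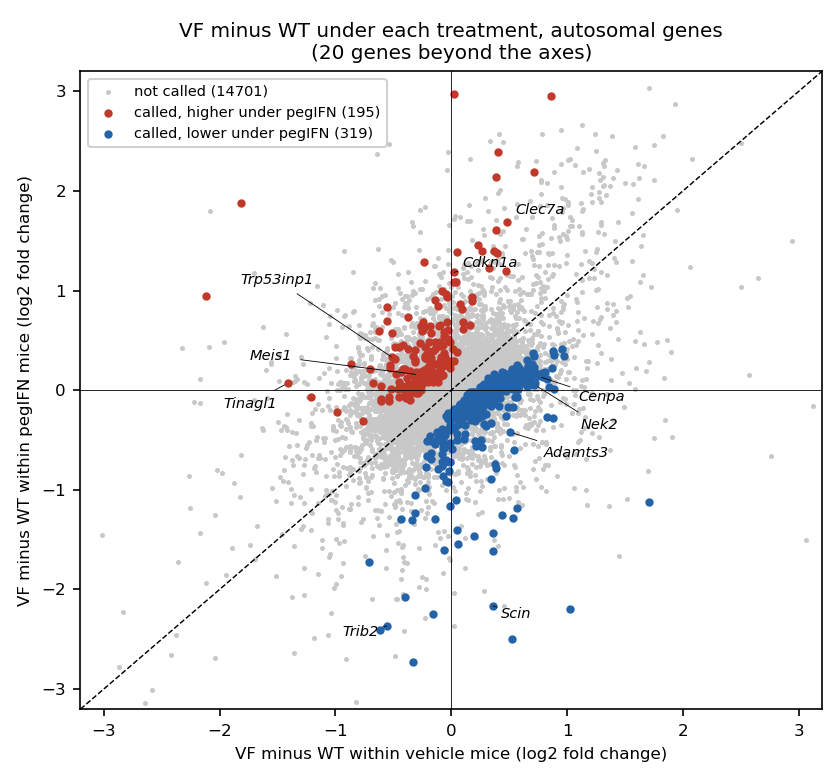
Each point is an autosomal gene, placed by its VF minus WT log2 fold change within vehicle mice (horizontal) and within pegIFN mice (vertical), with the dashed line marking equal differences. The 195 called genes above the line (red) lie mostly to the left of 0 or near it, and the 319 below it (blue) form a band at positive vehicle values that reaches 0 under pegIFN, plus a scattered group such as Scin and Trib2 that lies low under pegIFN alone; 20 genes fall beyond the axes.

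The clearest group was the genes of G2 phase and mitosis. VF cells expressed them more highly than WT cells in vehicle mice, and that gap was much smaller under pegIFN, where WT levels stood higher. Of 24 listed genes, all had a negative interaction and 18 were called lower (2.1% of all genes were), with none called higher. The median interaction was -0.45, against -0.01 over all tested genes. The median VF minus WT difference was 0.63 under vehicle, where all 24 were called higher in VF (17.7% of all genes were), and 0.16 under pegIFN, where 8 were (13.2% of all genes). The median response to pegIFN was 0.47 in WT and 0.03 in VF.

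Cenpa, which encodes the histone H3 variant of the centromere (chromosome 5, 30666777 to 30674827), shows the pattern. In WT cells its level was lowest at 37.6, median 53.5 and highest at 73 CPM under vehicle, and 82.1, 88.1 and 99.1 CPM under pegIFN. In VF cells the lowest, median and highest levels were 73.2, 98.6 and 107 CPM under vehicle and 83.6, 103 and 108 CPM under pegIFN. The WT vehicle libraries were lower than all other libraries, and the remaining 3 groups overlapped. The interaction was -0.60 ± 0.10 (adjusted p = 0.0069, edgeR quasi-likelihood), with VF minus WT at 0.75 under vehicle and 0.14 under pegIFN. The within-mouse differences ran from 0.42 to 1.00 in vehicle mice and from -0.01 to 0.29 in pegIFN mice, with no overlap.

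Other called members fill each step of division. The cyclins Ccna2 (-0.35 ± 0.09), Ccnb1 (-0.53 ± 0.12) and Ccnb2 (-0.53 ± 0.10) and their kinase partner Cdk1 (-0.33 ± 0.09) were lower in interaction. So were the mitotic kinases Plk1 (-0.63 ± 0.14), Aurka (-0.42 ± 0.11) and Aurkb (-0.49 ± 0.12), and the checkpoint kinase gene Bub1b (-0.50 ± 0.09). The kinetochore genes Cenpe and Cenpf had interactions of -0.57 ± 0.10 and -0.49 ± 0.08. Spindle motors and assembly factors followed: Kif11 at -0.42 ± 0.11, Kif20a at -0.46 ± 0.11 and Tpx2 at -0.47 ± 0.09. The anaphase-promoting complex activator Cdc20 stood at -0.55 ± 0.12 and its ubiquitin-conjugating partner Ube2c at -0.63 ± 0.11. Top2a, which untangles replicated DNA, stood at -0.45 ± 0.10 and the proliferation marker Mki67 at -0.44 ± 0.09. The members that missed the threshold were Bub1, Kif23, Nusap1, Ttk, Birc5 and Hmmr, with interactions between -0.43 and -0.27. In the 12 fits that each left out 1 mouse, Cenpa, Cenpe, Cenpf, Ccnb2, Bub1b, Ube2c, Tpx2 and Mki67 were called every time. Kif11 was called in 1 of those fits, Ccna2 and Cdk1 in 2, Aurka and Aurkb in 3, and the rest in 5 to 8.

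Outside the list, and chosen after their values were seen, 3 further mitotic regulators had the same sign: the centrosome kinase Nek2 at -0.66 ± 0.08 (adjusted p = 0.0017, edgeR quasi-likelihood), the phosphatase Cdc25b that activates CDK1 at -0.73 ± 0.10 (adjusted p = 0.0026) and Foxm1, a transcription factor of G2 genes, at -0.45 ± 0.10 (adjusted p = 0.023). For Cdc25b the VF minus WT difference was 0.47 under vehicle and -0.26 under pegIFN, and both passed the test. The 25 genes of G1/S transition and DNA replication had no call for the interaction, a count near what the 3.38% of all genes would give. Their median interaction was -0.16, with median VF minus WT differences of 0.23 under vehicle and 0.13 under pegIFN. A positive interaction was held by 3 of the 25. Under vehicle 24 were called higher in VF (17.7% of all genes were), and under pegIFN 12 were (13.2% of all genes).

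The vehicle mice were not alike. The mean VF minus WT difference of the 24 genes was 0.40, 0.59, 0.31, 0.75, 0.81 and 0.98 in vehicle mice 1 to 6, and between 0.05 and 0.23 in the 6 pegIFN mice. The mean log2 CPM of the 24 genes was 6.60 and 6.64 in the WT libraries of vehicle mice 1 and 3, close to the 6.63 to 6.69 of WT cells under pegIFN. In the WT libraries of vehicle mice 2, 4, 5 and 6 it was 6.15, 5.64, 6.09 and 6.02. The VF libraries lay between 6.39 and 7.0 under vehicle and between 6.71 and 6.89 under pegIFN. So the lower WT level under vehicle was held by 4 of 6 mice, and mouse 4, whose WT library had a low Xist level, was the lowest. Without vehicle mouse 4 and pegIFN mouse 1 the median stayed at -0.44 and 5 of the 24 were called. Leaving out 1 mouse at a time left between 8 and 23 called, with medians from -0.53 to -0.40. No member was called without the mouse term.

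**Figure D2:**
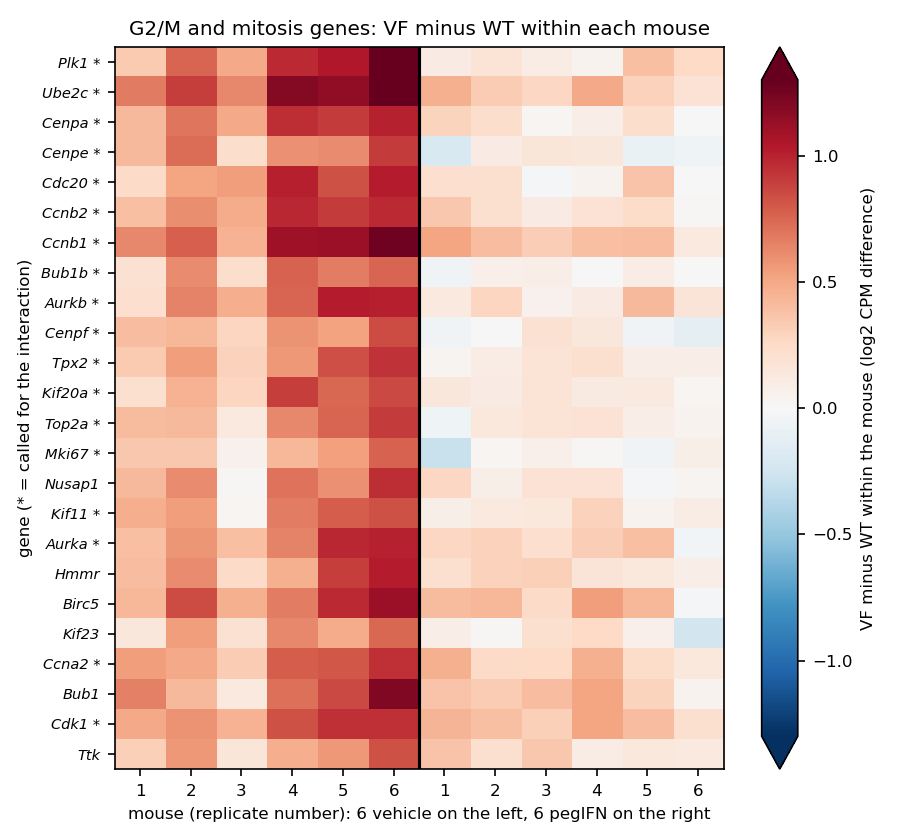
VF minus WT difference of log2 CPM (colour) for each of 24 G2/M and mitosis genes (rows) in each mouse (columns), with 6 vehicle mice left of the line and 6 pegIFN mice right of it; an asterisk marks a called gene. The vehicle mice are red for nearly every gene, most deeply in mice 4 to 6, and the pegIFN mice are pale.

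Many mitotic promoters share a short element, the cell cycle genes homology region (CHR), that recruits the DREAM complex in resting cells and B-MYB and FOXM1 in dividing cells. Its core was searched as TTTGAA on both strands (TTCAAA is the same element read from the other strand) within 50 bases of the annotated start. RefSeq promoters (GRCm38.p6) were matched for 20 of the 24 G2/M genes, and 14 of those 20 (70.0%) held the core. The share was 4.94% of all 32851 promoters in the RefSeq table over the same distance. The units differ: a G2/M gene counted if any of its promoters held the core, and the second share counts each promoter singly. Fewer than 80% of the G1/S genes, of the p53 targets and of the called G2/M genes had a matched promoter, so no share is given for them. In the called gene Mki67, the only core in the 100 bases before the start began 98 bases before it. Called genes with a core only across or after the start are not shown. The 5 windows below are called genes with a core near the start and wholly before it. Each is the 100 bases before the start, 5′ to 3′ on the gene's strand, with the CHR core in capitals, so that the start follows the last base. The windows are Cdc20, chr4:118437344-118437443, minus strand; Cdk1, chr10:69352913-69353012, minus strand; Kif11, chr19:37376282-37376381, plus strand; Top2a, chr11:99024190-99024289, minus strand; and Ube2c, chr2:164769829-164769928, plus strand.
Cdc20: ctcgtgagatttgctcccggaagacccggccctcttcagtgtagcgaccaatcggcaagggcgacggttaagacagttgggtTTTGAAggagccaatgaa
Cdk1: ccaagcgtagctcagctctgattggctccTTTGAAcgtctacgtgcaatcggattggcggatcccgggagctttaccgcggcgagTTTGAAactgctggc
Kif11: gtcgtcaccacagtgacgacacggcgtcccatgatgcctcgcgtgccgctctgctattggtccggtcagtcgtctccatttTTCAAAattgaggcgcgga
Top2a: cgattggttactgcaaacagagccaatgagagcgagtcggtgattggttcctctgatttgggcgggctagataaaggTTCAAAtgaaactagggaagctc
Ube2c: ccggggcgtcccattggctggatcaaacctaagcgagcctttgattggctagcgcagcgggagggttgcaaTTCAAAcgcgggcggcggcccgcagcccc
The nearest core began 18 bases before the start in Cdc20, 15 in Cdk1, 19 in Kif11, 23 in Top2a and 29 in Ube2c. In Cdc20 and Cdk1 it read forward and in the other 3 in reverse, and Cdk1 held 2 copies. A match of letters is a description and does not show that a factor binds there.

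Genes activated by p53, the DNA damage and stress sensor, moved the other way. Of 24 listed targets, 7 were called higher (1.28% of all genes were) and none lower (2.1%), and the median interaction was 0.36. The median VF minus WT difference was -0.03 under vehicle and 0.34 under pegIFN. Under vehicle 6 genes were called higher and 6 lower, against 17.7% and 13.7% of all genes. Under pegIFN 17 were called higher and 1 lower, against 13.2% and 11.4% of all genes. For 6 of the 24 the pegIFN mice lay wholly above the vehicle mice, against 0.802% of all genes. The mean difference over the list was between 0.33 and 0.57 in the 6 pegIFN mice and between -0.09 and 0.12 in the 6 vehicle mice, without overlap.

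Cdkn1a encodes p21, the cyclin-dependent kinase inhibitor through which p53 arrests the cell cycle (chromosome 17, 29090979 to 29100722). Its lowest, median and highest levels under vehicle were 5.09, 10.9 and 17.4 CPM in WT and 4.64, 10.4 and 18.1 CPM in VF. Under pegIFN they were 8.85, 12.7 and 18.1 CPM in WT and 17.9, 28.4 and 50.6 CPM in VF. The VF libraries of pegIFN mice were the highest, the lowest of them overlapping the top of the WT pegIFN and VF vehicle libraries, and within each of those 6 mice the VF library was the higher. VF minus WT was 0.02 ± 0.08 under vehicle and 1.18 ± 0.08 under pegIFN, and the interaction was 1.16 ± 0.12 (adjusted p = 8.8e-05, edgeR quasi-likelihood). Within-mouse differences ran from 0.84 to 1.48 under pegIFN and from -0.21 to 0.23 under vehicle (exact permutation p = 0.00216, the smallest that 924 arrangements of 12 mice allow). The pegIFN response of Cdkn1a was 1.42 ± 0.32 in VF (adjusted p = 0.0012) and 0.24 ± 0.32 in WT (adjusted p = 0.54). The interaction of Cdkn1a was called with each mouse left out in turn and without vehicle mouse 4 and pegIFN mouse 1 (1.14, adjusted p = 0.002).

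The other called targets reached a positive interaction by different routes. Ccng1, encoding cyclin G1, was at a median of 87.3 CPM in WT and 82 CPM in VF under vehicle, and 94.4 and 124 CPM under pegIFN; its interaction was 0.44 ± 0.07 (adjusted p = 0.0055, edgeR quasi-likelihood). Sesn2, a sestrin that restrains mTORC1, had an interaction of 0.60 ± 0.11, with VF minus WT at -0.20 and 0.40. These 2 genes, like Cdkn1a, responded to pegIFN in VF cells alone by the test: Ccng1 rose by 0.55 and Sesn2 by 0.82 there. Trp53inp1, a p53 cofactor, fell by 0.91 with pegIFN in WT cells and stood at -0.10 (adjusted p = 0.72) in VF cells, for an interaction of 0.80 ± 0.10 (adjusted p = 0.002). The immediate early and antiproliferative gene Btg2 and the polo-like kinase gene Plk2 fell in both genotypes, Btg2 by 2.03 in WT and 1.31 in VF and Plk2 by 2.73 and 1.59. Their interactions were 0.76 ± 0.15 and 1.25 ± 0.23. Sesn1 had the smallest of the called interactions, 0.24 ± 0.06.

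Among targets that missed the threshold, Ddit4l had the largest interaction, 2.41 ± 0.69 (adjusted p = 0.062, edgeR quasi-likelihood) at a mean log2 CPM of -2.09, and Mdm2, the p53 ubiquitin ligase, stood at 0.19 ± 0.06 (adjusted p = 0.095). Gadd45a, a damage-induced growth arrest gene, had the lowest, -0.51 ± 0.14 (adjusted p = 0.06). Chosen after their values were seen, Trp53 itself was called lower (-0.23 ± 0.06, adjusted p = 0.041), with WT medians of 236 and 341 CPM and VF medians of 239 and 296 CPM under vehicle and pegIFN. The long noncoding RNA gene Trp53cor1, a p53 target beside Cdkn1a, was called higher at 0.89 ± 0.23 (adjusted p = 0.043) at medians between 1.74 and 3.34 CPM. Without vehicle mouse 4 and pegIFN mouse 1, 3 of the 24 listed targets were called, with a median of 0.38, and leaving out 1 mouse at a time left between 6 and 9. In those 12 fits Sesn1 and Trp53cor1 were called 3 times and Trp53 4 times. None was called without the mouse term, where the median was 0.36.

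**Figure D3:**
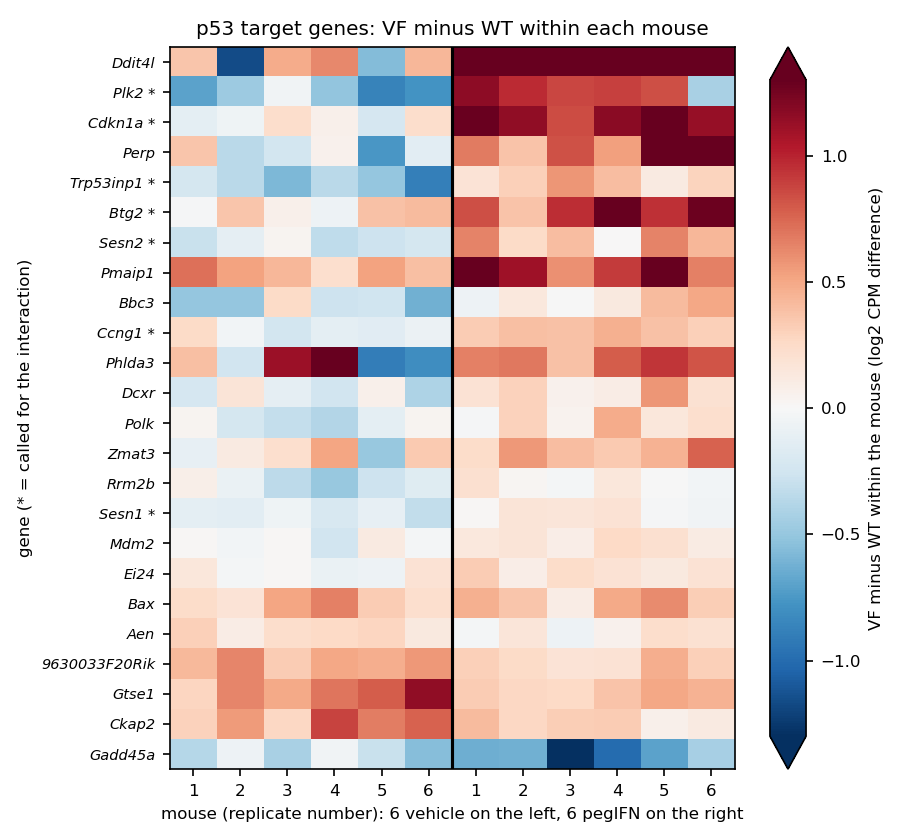
VF minus WT difference of log2 CPM (colour) for each of 24 p53 target genes (rows) in each mouse (columns), with 6 vehicle mice left of the line and 6 pegIFN mice right of it; an asterisk marks a called gene. Cdkn1a and Trp53inp1 are redder in every pegIFN mouse than in any vehicle mouse, and the lower rows, down to Gadd45a, do not share that pattern.

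BCL2 family proteins either hold the outer mitochondrial membrane intact or open it, and the study's title concerns interferon-induced apoptosis and Bcl-xL. Of 10 pro-apoptotic members none was called for the interaction, at a median of 0.01, a count that the 3.38% of all genes would also give for a list of this size. Under vehicle 5 of the 10 were called higher and 3 lower in VF, against 17.7% and 13.7% of all genes. Under pegIFN 2 were called higher and none lower, against 13.2% and 11.4% of all genes. Of 5 pro-survival members Mcl1 was called. Mcl1 was at a lowest, median and highest level of 326, 390 and 458 CPM in WT and 305, 375 and 431 CPM in VF under vehicle, and at 201, 233 and 276 CPM and 233, 253 and 281 CPM under pegIFN. Its interaction was 0.23 ± 0.05 (adjusted p = 0.027, edgeR quasi-likelihood), with a fall under pegIFN of 0.74 in WT and 0.51 in VF, and the within-mouse differences did not overlap. Without vehicle mouse 4 and pegIFN mouse 1 its adjusted p was 0.11, and it was called in 6 of the 12 fits that left out 1 mouse.

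Bcl2l1, which encodes Bcl-xL, had an interaction of 0.05 ± 0.07 (adjusted p = 0.73, edgeR quasi-likelihood). It was higher in VF than in WT by 0.21 under vehicle and by 0.26 under pegIFN, with WT medians of 52.8 and 74.5 CPM and VF medians of 59.7 and 90.3 CPM. Bax, a pore-forming effector, was likewise higher in VF by 0.36 and 0.39, with an interaction of 0.04 ± 0.09 (adjusted p = 0.87). The other effector gene Bak1 stood at -0.11 ± 0.06 and the survival gene Bcl2 at 0.12 ± 0.08. Among BH3-only genes, whose proteins trigger the effectors, the p53 targets Bbc3 (0.50 ± 0.14, adjusted p = 0.057) and Pmaip1 (0.53 ± 0.20, adjusted p = 0.15) had the larger values and Bcl2l11 stood at 0.11 ± 0.10. Daxx, a death domain-associated gene induced by interferon, stood at -0.22 ± 0.07 (adjusted p = 0.073). Pmaip1 was higher in VF by 0.48 under vehicle and by 1.01 under pegIFN.

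**Figure D4:**
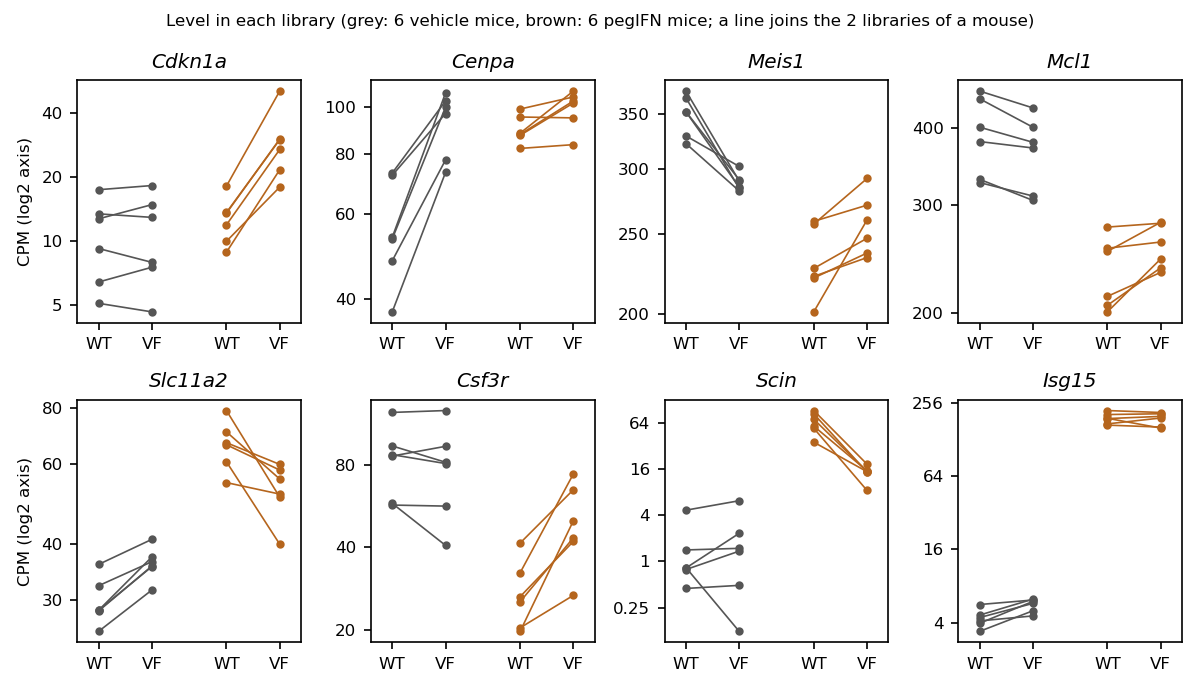
CPM (log2 axes) of 8 genes in WT and VF libraries, with a line joining both libraries of a mouse, for 6 vehicle mice (grey) and 6 pegIFN mice (brown). The lines of Cdkn1a are level under vehicle and rise under pegIFN, those of Cenpa rise steeply under vehicle and little under pegIFN, those of Meis1 and Mcl1 change slope, and VF lies below WT for Slc11a2 and Scin under pegIFN; the Isg15 lines lie between 3.39 and 6.23 CPM under vehicle and between 158 and 220 CPM under pegIFN.

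The core interferon genes responded to pegIFN by a similar amount in both genotypes, though many stood lower in VF under both treatments. Of 53 interferon-stimulated genes, 1 was called higher and 2 lower, a share near the 3.38% of all genes, and the median interaction was -0.01. The median response of these genes to pegIFN was 2.75 in WT and 2.80 in VF. Their median VF minus WT difference was -0.17 under vehicle and -0.14 under pegIFN. Under vehicle 4 were called higher and 23 lower in VF, against 17.7% and 13.7% of all genes. Under pegIFN 1 was called higher and 25 lower, against 13.2% and 11.4% of all genes. Isg15, a ubiquitin-like antiviral modifier, was at 3.39, 4.26 and 5.63 CPM (lowest, median, highest) in WT and 4.54, 5.86 and 6.23 CPM in VF under vehicle, and at 167, 190 and 220 CPM and 158, 194 and 212 CPM under pegIFN. VF cells had more Isg15 under vehicle, by 0.37, and the genotypes overlapped under pegIFN, for an interaction of -0.40 ± 0.10 (adjusted p = 0.032, edgeR quasi-likelihood). The oligoadenylate synthetase genes split, with Oas2 at -0.26 ± 0.06 (adjusted p = 0.024) and Oas1g at 0.43 ± 0.11 (adjusted p = 0.033). Isg15 and Oas2 were induced by 5.45 and 4.38 in WT and by 5.06 and 4.11 in VF, while Oas1g was induced by 3.62 and 4.04. Without vehicle mouse 4 and pegIFN mouse 1 the adjusted p values of Isg15, Oas2 and Oas1g were 0.059, 0.1 and 0.083, and with 1 mouse left out they were called in 8, 9 and 3 of 12 fits. The Oas1 genes are near-identical copies of one another, and how reads were shared among them affects Oas1g.

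Irf7 (-0.22 ± 0.08, adjusted p = 0.13, edgeR quasi-likelihood), which amplifies the response, did not pass. No call was made among 16 interferon-inducible GTPases (median 0.05) or 21 genes of class I antigen presentation (median -0.05). Of all genes 3.38% were called. Ifnar1 stood at 0.10 ± 0.07 and Jak2 at -0.09 ± 0.07 (adjusted p = 0.52). Jak2 was lower in VF by 0.22 under vehicle and 0.30 under pegIFN. Among 23 receptor and JAK-STAT genes, 2 were called. Ifngr1, the ligand-binding chain of the type II receptor, was raised by pegIFN by 1.08 in WT and 0.39 in VF, an interaction of -0.66 ± 0.13 (adjusted p = 0.016). Socs3, a feedback inhibitor of JAK kinases, fell by 1.89 in WT and 1.21 in VF, an interaction of 0.75 ± 0.13 (adjusted p = 0.0085). Cish, a STAT5 target, stood at 0.42 ± 0.16 (adjusted p = 0.16), and Socs3 was the only call among 17 genes of the STAT5 list.

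Stem cell identity genes were mostly lower in VF than in WT under vehicle, and the median gap was smaller under pegIFN. Of 31 listed genes, 4 were called higher (1.28% of all genes were) and none lower, 25 had a positive value, and the median interaction was 0.23. VF minus WT had a median of -0.27 under vehicle, where 17 were called lower in VF (13.7% of all genes were) and 3 higher, and -0.04 under pegIFN, where 2 were called lower (11.4% of all genes) and 4 higher. The mean difference over the list ran from -0.40 to -0.14 in the vehicle mice and from -0.38 to 0.18 in the pegIFN mice, which overlapped. The list's median response to pegIFN was -0.75 in WT and -0.45 in VF. Meis1, a homeobox partner of HOX proteins needed by HSCs, was at 322, 352 and 373 CPM (lowest, median, highest) in WT and 282, 287 and 302 CPM in VF under vehicle, and at 201, 224 and 259 CPM and 234, 254 and 292 CPM under pegIFN. The WT libraries were above all VF libraries under vehicle, and under pegIFN VF was the higher in each of the 6 mice. The interaction was 0.42 ± 0.06 (adjusted p = 0.0035, edgeR quasi-likelihood), with VF minus WT at -0.27 and 0.15, both past the test.

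Pdzk1ip1, a membrane-associated protein gene enriched in HSCs, had an interaction of 0.47 ± 0.07 (adjusted p = 0.0046, edgeR quasi-likelihood): VF was lower by 0.46 under vehicle and level with WT under pegIFN (0.01). The stem cell transcription factor genes Lmo2 and Lyl1 stood at 0.19 ± 0.05 (adjusted p = 0.033) and 0.32 ± 0.08 (adjusted p = 0.045). Of the genes behind the sorting gate, Ly6a had an interaction of 0.29 ± 0.12 (adjusted p = 0.21), Slamf1 of 0.19 ± 0.13 and Cd48 of -0.36 ± 0.21. Cxcr4, the receptor that holds HSCs in the marrow niche, was chosen after its values were seen. It was lower in VF by 0.61 under vehicle and stood at -0.11 (adjusted p = 0.21) under pegIFN, for an interaction of 0.50 ± 0.09 (adjusted p = 0.0085). Meis1, Pdzk1ip1 and Cxcr4 were called without vehicle mouse 4 and pegIFN mouse 1, and Lmo2 and Lyl1 were not (adjusted p = 0.14 for both). Lmo2 was called in 4 and Lyl1 in 3 of the 12 fits that left out 1 mouse.

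Immediate early genes, the fast transcription factors and feedback proteins that follow growth factor signals and cell handling, had a median pegIFN response of -1.88 in WT and -1.36 in VF. Of 22 listed, 4 were called higher for the interaction (1.28% of all genes were) and none lower. A positive value was held by 21, and the median was 0.43. Egr1, a zinc finger factor linked to HSC quiescence, was at a median of 828 CPM in WT and 837 CPM in VF under vehicle and 120 and 186 CPM under pegIFN. Its interaction was 0.54 ± 0.13 (adjusted p = 0.036, edgeR quasi-likelihood), and the within-mouse differences overlapped. Zfp36, which destabilises cytokine mRNAs, stood at 0.61 ± 0.12 (adjusted p = 0.017) without overlap, and Ier5 at 0.30 ± 0.07. Btg2 was described above, and Nr4a1 stood at 0.51 ± 0.15 (adjusted p = 0.088). With 1 mouse left out Zfp36 was called in 11 of 12 fits, and Egr1 and Ier5 in 5. Levels of these genes spread widely between mice, with Btg2 between 24.1 and 246 CPM in WT vehicle libraries.

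Granulocyte and monocyte genes were higher in VF under both treatments. The median VF minus WT difference of 23 such genes was 1.00 under vehicle and 1.29 under pegIFN. Under vehicle 8 were called higher (17.7% of all genes were), and under pegIFN 16 were (13.2% of all genes). The median interaction of the 23 was 0.65. The mean difference over the list ran from 0.29 to 1.36 in the vehicle mice and from 0.41 to 1.65 in the pegIFN mice, which overlapped. For the interaction 2 of the 23 genes were called, both higher, where 1.28% of all genes were called higher. They were Csf3r, the receptor for G-CSF, and Itgam, the CD11b integrin chain. Csf3r was at 57.2, 87 and 125 CPM (lowest, median, highest) in WT and 40.7, 81.7 and 127 CPM in VF under vehicle, and at 19.7, 25.8 and 41.5 CPM and 26.7, 46.7 and 74.4 CPM under pegIFN. Csf3r fell with pegIFN by 1.62 in WT and by 0.67 in VF, for an interaction of 0.96 ± 0.15 (adjusted p = 0.0085, edgeR quasi-likelihood), and the within-mouse differences did not overlap. Itgam had an interaction of 0.90 ± 0.22 (adjusted p = 0.037) and was called in 5 of 12 fits with a mouse left out, Csf3r in all 12. The abundant granule genes had wide errors: Mpo stood at 0.67 ± 0.68, Elane at 0.68 ± 0.66 and S100a8 at 0.73 ± 0.50. Lyz2, lysozyme, stood at 0.43 ± 0.13 (adjusted p = 0.084).

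Several of the 12 largest positive interactions are also known from myeloid cells. Clec7a, the beta-glucan receptor dectin-1, had medians of 2.11 and 3.02 CPM in WT and VF under vehicle and 2.8 and 8.69 CPM under pegIFN, an interaction of 1.20 ± 0.24 (adjusted p = 0.015, edgeR quasi-likelihood). The transcription factor gene Cebpd (1.14 ± 0.23), the Src-family kinase gene Fgr (1.22 ± 0.28) and the platelet-activating factor receptor gene Ptafr (1.09 ± 0.22) were called as well. Ccl6 had medians of 2.13 and 3.51 CPM under vehicle and 1.15 and 6.92 CPM under pegIFN. With 1 mouse left out Ccl6 was called in 3 and Fgr in 8 of 12 fits. The summed granulocyte and monocyte markers, given above, moved with this group, and under pegIFN the lowest VF library lay above the highest WT library. Their part in these results was not tested. In RNA of a sorted population, more cells of a type and more RNA per cell cannot be told apart.

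Tinagl1, Mmp2, Pde2a, Dock3 and Hpgds also had large positive interactions, and their levels were lower under pegIFN, more so in WT cells. Tinagl1, a matrix protein gene, fell by 3.07 in WT and 1.66 in VF, an interaction of 1.48 ± 0.32. Its VF minus WT difference was -1.41 under vehicle and 0.07 under pegIFN. Mmp2, a gelatinase gene, stood at 1.11 ± 0.21, Pde2a, a cyclic nucleotide phosphodiesterase gene, at 1.12 ± 0.26, and Dock3, a guanine nucleotide exchange factor gene, at 1.22 ± 0.29. Hpgds, the haematopoietic prostaglandin D synthase gene and the 1 call among 10 mast cell and basophil genes, stood at 1.38 ± 0.29 with medians between 0.83 and 3.82 CPM. Summed endothelial and stromal markers (5 genes) moved with treatment as well, from a median of 14.5 to 2.9 CPM in WT and from 13.3 to 2.58 CPM in VF, and their part in these results was not tested. With 1 mouse left out Pde2a was called in 2 of 12 fits, Dock3 in 6 and Tinagl1 in 11.

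The largest negative interactions belonged to genes that pegIFN raised in WT cells and less in VF cells. Scin was at 0.445, 0.827 and 4.64 CPM (lowest, median, highest) in WT and 0.123, 1.42 and 6.16 CPM in VF under vehicle. Under pegIFN it was at 35.6, 64.2 and 91.8 CPM in WT and 8.38, 14.8 and 18.4 CPM in VF. Every VF library under pegIFN was below every WT library under pegIFN. The interaction was -2.52 ± 0.41 (adjusted p = 0.013, edgeR quasi-likelihood), with an induction of 5.50 ± 0.59 in WT and 2.86 ± 0.55 in VF. The 6 vehicle mice had differences from -2.26 to 1.43, the lowest of them in mouse 2, and overlapped the pegIFN mice, which ran from -2.68 to -1.28.

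Trib2, a pseudokinase gene that promotes degradation of C/EBP alpha, was at medians of 6.72 and 4.7 CPM in WT and VF under vehicle and 96.7 and 18 CPM under pegIFN. Its interaction was -1.81 ± 0.33 (adjusted p = 0.019, edgeR quasi-likelihood), and the within-mouse differences did not overlap. Siglec5, a sialic acid-binding receptor gene, stood at -1.45 ± 0.20 (adjusted p = 0.0034), with an induction of 2.06 in WT and 0.59 in VF. Il1rl1, the IL-33 receptor gene, was induced by 3.31 in WT and 1.76 in VF, an interaction of -1.53 ± 0.30. Slc45a3, a sugar transporter family gene, was induced by 3.59 and 1.87 (-1.79 ± 0.25). The muscle LIM protein gene Csrp3 (-1.81 ± 0.36), the potassium channel gene Kcng2 (-1.69 ± 0.30), the sialyltransferase gene St8sia6 (-1.60 ± 0.33), Serpinb10 (-1.17 ± 0.29) and the TGF-beta binding protein gene Ltbp1 (-1.16 ± 0.26) completed the characterised genes of this group. Siglec5, Slc45a3 and Kcng2 were called without vehicle mouse 4 and pegIFN mouse 1. Scin, Csrp3, Trib2, St8sia6, Il1rl1, Serpinb10 and Ltbp1 were not, with adjusted p values from 0.059 to 0.12. With 1 mouse left out Serpinb10 was called in 2 of 12 fits, Ltbp1 in 4 and St8sia6 in 5.

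Adamts3, a procollagen protease gene chosen after its values were seen, shared the smallest adjusted p with Cdkn1a. It was at a median of 11.6 CPM in WT and 16.6 CPM in VF under vehicle, and 31.1 and 22.7 CPM under pegIFN. VF was higher by 0.50 under vehicle and lower by 0.42 under pegIFN, an interaction of -0.92 ± 0.09 (adjusted p = 8.8e-05, edgeR quasi-likelihood), without overlap between mice.

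Iron handling held a further pair. Of 18 iron and haem genes, 2 were called lower (2.1% of all genes were) and none higher, at a median of 0.05. Slc11a2 (DMT1, chromosome 15), which carries ferrous iron across membranes, had lowest, median and highest levels of 25.6, 28.5 and 36 CPM in WT and 31.6, 36.1 and 40.9 CPM in VF under vehicle. Under pegIFN they were 54.6, 66.6 and 78.8 CPM in WT and 39.9, 53.6 and 59.9 CPM in VF. The order of the genotypes was reversed, with VF minus WT at 0.29 under vehicle and -0.34 under pegIFN, both past the test. The interaction of Slc11a2 was -0.62 ± 0.09 (adjusted p = 0.0046, edgeR quasi-likelihood), and it was called in each fit that left out a mouse. Steap3, the endosomal ferrireductase gene that works with DMT1, stood at -0.67 ± 0.14 (adjusted p = 0.026), rising by 1.81 in WT and 1.15 in VF, and was called in 7 of 12 such fits.

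The 21 erythroid genes had a call in each direction, where 1.28% of all genes were called higher and 2.1% lower. Aqp1, a water channel gene, was raised by pegIFN from a median of 162 to 472 CPM in WT and from 162 to 254 CPM in VF, an interaction of -0.87 ± 0.20 (adjusted p = 0.043, edgeR quasi-likelihood). Car2, carbonic anhydrase 2, stood at 0.25 ± 0.07 (adjusted p = 0.05, just under the threshold). Aqp1 and Car2 were each called in 1 of the 12 fits that left out 1 mouse, and Lsp1, below, in 3. Summed erythroid markers ranged from 223 to 347 CPM in WT and from 129 to 246 CPM in VF under pegIFN, against 121 to 360 and 126 to 219 CPM under vehicle, and their part in the Aqp1 result was not tested. No megakaryocyte gene was called among 23 (median -0.07). Lsp1 (0.60 ± 0.15) was the 1 call among 12 early lymphoid genes. Pdgfrb (-1.02 ± 0.22), a receptor gene of stromal cells, was the 1 call among 9 endothelial and stromal genes, a list in which the summed markers of 1 VF vehicle library reached 78.5 CPM.

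The calls among growth and DNA repair genes were all lower. Of all genes 1.28% were called higher and 2.1% lower. A positive interaction was held by 1 of 23 MYC and ribosome biogenesis genes, at a median of -0.10. Of those 23 genes, 3 were called lower and none higher. They were Nolc1 (-0.25 ± 0.06) and Bop1 (-0.28 ± 0.07), which act in the nucleolus, and Cad (-0.34 ± 0.08), the first enzyme of pyrimidine synthesis. Of 24 DNA repair genes, the Fanconi anaemia genes Fanca (-0.53 ± 0.13) and Fancd2 (-0.36 ± 0.09) were called lower, at a median of -0.16. None of those 5 was called without vehicle mouse 4 and pegIFN mouse 1, and with 1 mouse left out they were called in 3 (Fancd2) to 9 (Cad) of 12 fits. Slc7a5, a leucine transporter gene chosen after its values were seen, had an interaction of -0.46 ± 0.07 (adjusted p = 0.0055, edgeR quasi-likelihood), with VF higher by 0.39 under vehicle and at -0.08 under pegIFN. No gene was called among 38 of nuclear oxidative phosphorylation (median -0.13), 30 cytosolic ribosomal proteins (median -0.003), 24 of the proteasome (median -0.10), 12 heat shock chaperones (median -0.09), 22 of the NF-kB group (median 0.02), 9 of B cells (median 0.19) or 6 of T and NK cells (median 0.39).

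The other lists held 1 or 2 calls each, where 3.38% of all genes were called. Of 22 genes of glycolysis and the hypoxia response, 2 were called higher: the glucose transporter gene Slc2a3 (0.22 ± 0.06) and the prolyl hydroxylase gene Egln3 (0.55 ± 0.12). Insig1 (0.31 ± 0.07), which restrains sterol synthesis, was the 1 call among 21 cholesterol and fatty acid genes. Egr1 was the 1 call among 21 quiescence regulators (median 0.09), and Sesn2 the 1 call among 23 genes of the unfolded protein and integrated stress responses (median -0.10).

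**Figure D5:**
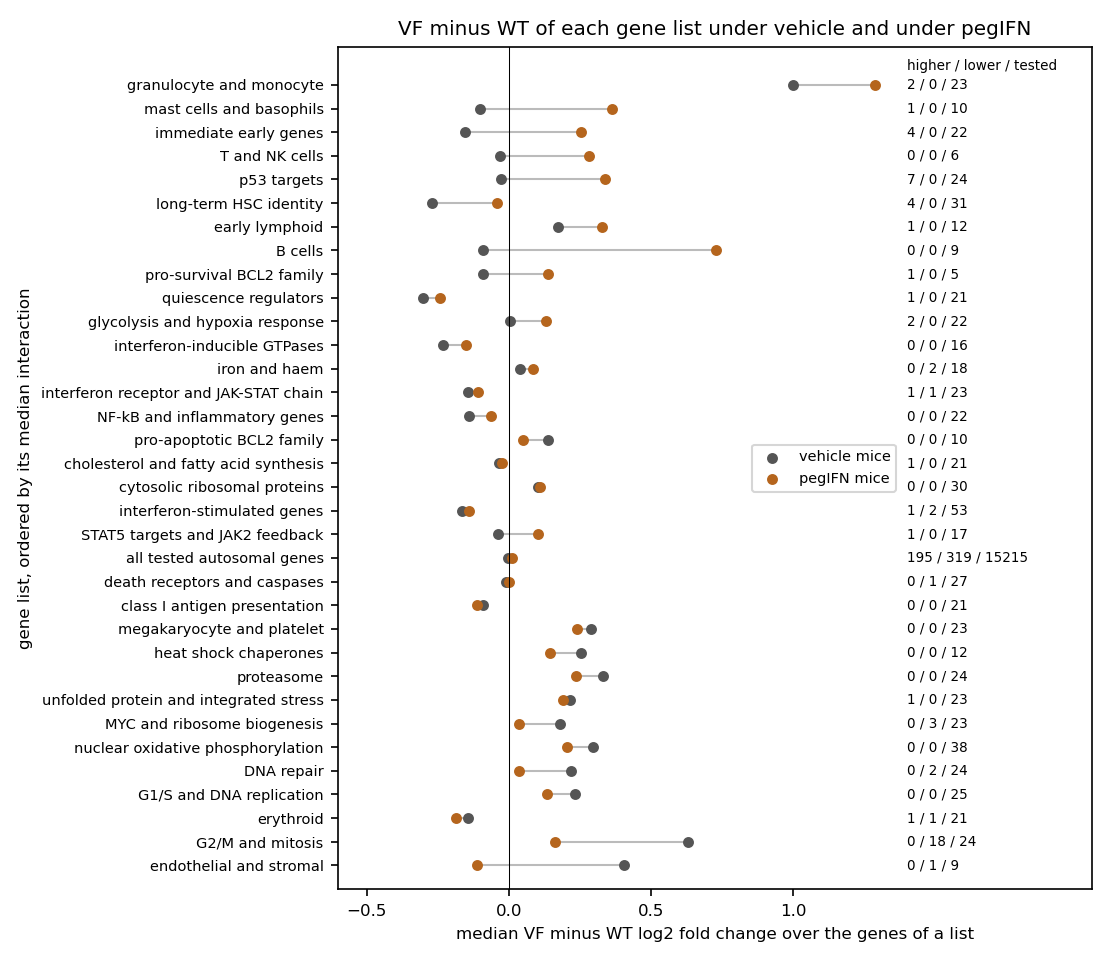
Median VF minus WT log2 fold change of each gene list under vehicle (grey) and under pegIFN (brown), with the lists ordered by their median interaction and the numbers called higher, called lower and tested at the right. The G2/M list moves furthest left among lists with many calls (18 of 24), the p53 target list moves right of 0 (7 of 24), and the interferon-stimulated genes stay in place.

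Since the donors carry different Ptprc alleles and the mutant Jak2 allele, genes near those loci were counted apart. Within 20 Mb of Ptprc on chromosome 1, 10 of 186 tested genes (5.38%) were called for the interaction, and within 20 Mb of Jak2 on chromosome 19, 17 of 275 (6.18%), against 3.38% overall. The first window holds Btg2, Steap3, Slc45a3, Cxcr4 and Ier5, and the other holds Kif11 and Nolc1. Ptprc itself had an interaction of 0.13 ± 0.09 (adjusted p = 0.45, edgeR quasi-likelihood). Linkage to these loci cannot be told apart from genotype here.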

How the data were processed

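Polyadenylated RNA of sorted LT-HSCs was sequenced in 24 libraries (single-end, per the labels' protocols). The authors deposited a table of RSEM expected counts (estimated counts, reads assigned to 38215 genes after trimming and alignment, not normalized). The submitters' processing notes name cutadapt 1.11, STAR 2.5.2a, RSEM 1.2.30 and GRCm38. Whether strand was used in counting is not given in the sources used here. RSEM divides reads shared by similar genes, so near-identical copies carry extra uncertainty. Of the values, 16.8% were not whole and were rounded. Genes were kept with edgeR's filterByExpr (minimum count 10), leaving 15879 and 99.95% of counts. Of these, 15215 autosomal genes are reported, with Benjamini-Hochberg adjustment over all tested genes and calls at 0.05. TMM factors and edgeR 4.0.16 (quasi-likelihood, R 4.3.3) were used with 12 mouse terms and a VF effect per treatment; SE is the fold change over the root of F. PegIFN responses came from a fit of group means without mice. Within-mouse differences used log2 CPM with a prior count of 2, and 924 arrangements in the exact permutation test.

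Both genotypes of a mouse share a recipient, per the labels' protocols, and the mouse number comes from the library names. As a check, residuals of the pair correlated at 0.12 to 0.43 (median 0.29). With totals of 24.6 to 39.7 M counts, counting error is relatively small for genes at high levels. It weighs more at low levels, such as those of Scin under vehicle, Ccl6, Hpgds and Ddit4l. It was not set against the spread between mice for these genes. Separate recipients make separate replicates, but whether each came from separate donors is not given in the sources used here. On simulated data the interaction test recovered 43.3% of genes changed by 0.5 and 68% of those changed by 1 (log2), over 15710 genes. Each gene was drawn separately there, so shifts of the VF minus WT difference shared by many genes of a mouse were absent. The recovered shares may therefore not hold for the real libraries.

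The members and the 33 gene lists (701 of 705 genes matched) were chosen with earlier results of these data known. Named genes were, from called genes whose mean log2 CPM was 1 or more, the 12 largest interactions in each direction, up to 3 members of each list by smallest p, and a set of apoptosis, interferon and gate genes; uncharacterised genes, an rRNA gene and most uncalled members were left out, and genes added by sight are named as such or are called members of the lists described. Alternatives were other scaling, filters, tools and prior counts, no mouse term, and leaving out mice, 1 at a time or vehicle mouse 4 and pegIFN mouse 1 together. Sex-chromosome genes were left out, with 14 called there. Some genes that the rule selects are not reported here.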

Additional observations from a re-analysis of the deposited data

Results flagged for a closer look

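The VF minus WT difference was called higher in pegIFN than in vehicle mice for 195 genes and lower for 319. Over 64 groups of 6 values checked, 6 held a single value far from the other 5, where chance gives about 1 in 20. The within-mouse difference of Clec7a was 0.00722 in vehicle mouse 3, below those of the other vehicle mice. For Scin it was -2.26 in vehicle mouse 2. Siglec5 stood at -0.68 in pegIFN mouse 6, the smallest loss of that group. The mean difference of the G2/M genes was 0.0514 in pegIFN mouse 6, below the other pegIFN mice. Y-linked transcripts summed to 250 CPM in the WT library of vehicle mouse 4, and Xist stood at 654 CPM in the VF library of pegIFN mouse 1.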

How the results depend on the processing

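The pairing by mouse decides the interaction calls: without the mouse block 0 genes were called in place of 514, with 1954 in place of 4777 between genotypes under vehicle and 1295 in place of 3749 under pegIFN. DESeq2 with the block called 993 (400 higher, 593 lower, 507 shared with the 514) and limma-voom with mouse as a random block 271 (79 and 192, 233 shared). Without vehicle mouse 4 and pegIFN mouse 1 the counts were 102 and, under pegIFN, 2418. Leaving out 1 mouse at a time gave 199 (without pegIFN mouse 4) to 923 (without pegIFN mouse 6) for the interaction, 3277 to 4915 under vehicle and 2399 to 3858 under pegIFN. The other scalings, filters and prior counts, within-mouse limma and adjustment over autosomal genes gave 472 to 559 interaction calls. Upper-quartile scaling moved the share called higher from 37.9% to 51.3%, the filter of 1 CPM in 12 libraries moved it to 48.2%, and upper-quartile scaling moved the vehicle share from 56.3% to 45.8%. The cause was not tested. A pair of near-zero values changed sign with a mouse left out: Bcl2l1 ranged from -0.000494 (without pegIFN mouse 4) to 0.0999, and Bax from -0.0181 (without pegIFN mouse 5, and below 0 also without vehicle mouse 6) to 0.0994. Of 81 called genes named here, 35 were called by limma-voom, 28 without vehicle mouse 4 and pegIFN mouse 1, 60 with no filter on low counts and 38 in every fit that left out 1 mouse.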
